A study of Homo sapiens with 2 samples.

Results

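The genes described here are 44 genes of mitosis, measured in HCT116 cells, an epithelial line derived from a tumour of the human colon: cyclins and kinases of the G2/M transition, the spindle checkpoint, the kinetochore and the machinery of sister chromatid cohesion. They were chosen by name, and every one of the 44 was found as a row of both deposited tables, out of 51609 gene symbols with a value in each. RNA of 2 libraries was sequenced in paired ends. The submitters call the libraries biological replicates and name them PJ and PF, letters that the labels do not explain. Both came from cells of the same untreated line, grown in serum-containing medium to 80% confluence, and form 1 group, so the data give the level of each gene and how far the libraries differed, with no p-value. Normal colon libraries named in the series design were not analysed here.

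Cells enter mitosis when the kinase CDK1, bound to cyclins A and B and freed from inhibitory phosphates by CDC25 phosphatases, becomes active. Aurora and polo-like kinases then build the spindle, and kinetochores assemble on centromeric chromatin to hold its microtubules. Until every kinetochore is attached, the spindle checkpoint keeps CDC20 from activating the anaphase-promoting complex (APC/C), the ubiquitin ligase that destroys securin and cyclin B and so frees separase to cut cohesin. In dividing cells many of these genes are transcribed mainly in G2 and M phase, from promoters with a cell cycle homology region (CHR) and CCAAT boxes that bind the DREAM and MuvB complexes and the factor NF-Y. In bulk RNA, fewer cells in G2 or M and less RNA per such cell cannot be told apart.

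All 44 genes were expressed, most of them well above the threshold. Expression is given in FPKM, which counts sequenced fragments relative to transcript length and to all fragments of the library, and a gene at 1 FPKM or more in both libraries was called expressed. This held for 44 of 44 mitotic genes, whereas 27.9% of all symbols and 57.3% of protein-coding symbols passed. At 10 FPKM or more in both libraries stood 37 of the 44, or 84.1%, and 31.8% of protein-coding symbols. Levels ran from 6.96 FPKM for CENPE to 285 for CCNB1 in PJ, a 40.9-fold range, and from 4.01 for CENPI to 224 for BUB3 in PF, a 55.8-fold range. The median gene of the set had 40.2 FPKM in PJ and 36.6 in PF, above 85.3% and 86.6% of protein-coding symbols in the same libraries. Every estimate had status OK, each gene had 1 row, and the number of fragments behind the values is unknown.

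The libraries carried epithelial markers and differed in several ways that run beside the results. All 8 epithelial markers were at 1 FPKM or more, against 1 of 6 for fibroblasts (COL1A1), 0 of 5 for endothelium, 1 of 7 for immune cells (HLA-DRA) and 0 of 6 for mature colon, with FABP1 and TFF3 listed at 0 in both libraries. Summed epithelial markers were 951 FPKM in PJ and 1604 in PF, with 6 of the 8 lower in PJ and 3 (CDH1, KRT8 and CLDN4) at least 2-fold lower, and the other marker lists summed to at most 4.07 FPKM in PJ and 7.55 in PF. CDH1, the epithelial cadherin, was at 1.80 FPKM in PJ and 21.9 in PF; it and the others of the 3 are named after their values were seen. The summed FPKM of 8 mitochondrial genome transcripts was 29379 in PJ and 65767 in PF. CDKN1A, which encodes the CDK inhibitor p21, was at 7.71 FPKM in PJ and 195 in PF. Over symbols expressed in both libraries the median ratio of PJ over PF was 1.19, or 0.25 on the log2 scale. Whether any of these differences bears on the mitotic genes was not tested.

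The promoters of these genes were searched for the sequence elements named above. The genes were chosen by name, but many genes of this kind are known for such promoters. The shares below are therefore a description and no independent finding. RefSeq promoter windows, from 250 bases before to 50 after a transcription start (GRCh38.p14), were matched for 35 of the 44 genes, 49 windows in all (not matched: AURKA, BIRC5, BUB3, CASC5, CENPH, CENPM, KNTC1, TPX2 and TTK). The CHR was searched as TTTGAA or TTCGAA and the CCAAT box as CCAAT, on both strands. A CHR was present in 28 of the 49 windows, or 57.1%, against 16.4% of all 35116 windows. A CCAAT box was present in 35, or 71.4%, against 34.6% of all windows, and both in 22, or 44.9%, against 6.38%. At least 2 CCAAT boxes were present in 19, or 38.8%, against 10.8%, and neither element in 8, or 16.3%, against 55.4%. By gene, 25 of 35 had a CHR in at least 1 window, or 71.4%, against 19.5% of all 27305 symbols. A CCAAT box was present for 28 of 35 genes, or 80.0%, against 39.7% of symbols. In 1 window, that of CDCA8, a CHR and a CCAAT match overlap. Of the 35 genes 19, or 54.3%, had both elements in 1 window, against 7.85% of symbols. The 8 genes shown next were selected for display and need not be typical: all but CCNB1 show both elements. Their stretches, 150 bases before to 20 after the start, follow with CHR and CCAAT letters (or their reverse complements TTCAAA and ATTGG) in capitals.
CCNB1 promoter, chr5:69167000-69167169, plus strand: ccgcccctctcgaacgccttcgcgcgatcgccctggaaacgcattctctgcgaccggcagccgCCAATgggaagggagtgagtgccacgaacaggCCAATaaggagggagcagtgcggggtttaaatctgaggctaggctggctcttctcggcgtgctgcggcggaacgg
CCNB2 promoter, chr15:59104996-59105165, plus strand: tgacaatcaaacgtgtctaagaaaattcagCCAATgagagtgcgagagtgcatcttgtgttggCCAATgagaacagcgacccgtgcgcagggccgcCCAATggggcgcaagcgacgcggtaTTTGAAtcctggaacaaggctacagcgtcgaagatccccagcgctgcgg
CDK1 promoter, chr10:60778328-60778497, plus strand: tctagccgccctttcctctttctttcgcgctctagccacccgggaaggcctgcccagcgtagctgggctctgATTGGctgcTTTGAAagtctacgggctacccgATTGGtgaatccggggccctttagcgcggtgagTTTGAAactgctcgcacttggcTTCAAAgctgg
PLK1 promoter, chr16:23678739-23678908, plus strand: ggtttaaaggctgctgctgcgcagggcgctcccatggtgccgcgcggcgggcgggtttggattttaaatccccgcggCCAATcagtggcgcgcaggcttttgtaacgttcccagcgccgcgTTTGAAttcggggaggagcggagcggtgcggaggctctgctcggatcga
CDC20 promoter, chr1:43358831-43359000, plus strand: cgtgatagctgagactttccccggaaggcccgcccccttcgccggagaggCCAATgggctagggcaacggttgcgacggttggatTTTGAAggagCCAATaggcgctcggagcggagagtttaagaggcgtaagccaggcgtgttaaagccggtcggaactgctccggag
CDCA3 promoter, chr12:6851267-6851436, minus strand: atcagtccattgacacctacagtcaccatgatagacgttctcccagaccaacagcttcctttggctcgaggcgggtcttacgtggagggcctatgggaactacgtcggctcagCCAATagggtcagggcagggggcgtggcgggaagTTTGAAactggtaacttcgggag
BUB1 promoter, chr2:110678044-110678213, minus strand: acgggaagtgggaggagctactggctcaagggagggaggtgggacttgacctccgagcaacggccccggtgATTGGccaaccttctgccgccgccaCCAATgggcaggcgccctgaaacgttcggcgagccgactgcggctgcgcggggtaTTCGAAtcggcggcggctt
SPC25 promoter, chr2:168890411-168890580, minus strand: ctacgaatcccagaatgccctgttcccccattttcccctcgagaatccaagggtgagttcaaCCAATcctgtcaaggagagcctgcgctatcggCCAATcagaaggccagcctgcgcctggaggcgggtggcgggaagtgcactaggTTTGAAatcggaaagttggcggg

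Of these 8 promoters, 5 belong to G2/M cyclins, kinases and their partners, and the others to CDC20, BUB1 and SPC25. The CCNB2 stretch has 3 CCAAT boxes before a CHR close to the start. The CDK1 stretch has 3 CHR and 2 CCAAT matches. PLK1 and CDCA3 have 1 of each, and BUB1 and SPC25 carry 2 CCAAT boxes ahead of a CHR that lies at the start. The CCNB1 stretch has 2 CCAAT boxes and neither CHR spelling, which says only that these letters are not in this window. Among windows with a CHR, 24 of 28 had one lying wholly within 50 bases of the start, or 85.7%, against 30.7% of the 5742 such windows over all genes; this distance was chosen after the promoters were seen. CENPE and CENPI had neither element in any window. A match of letters is a description and not a binding site.

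**Figure D1:**
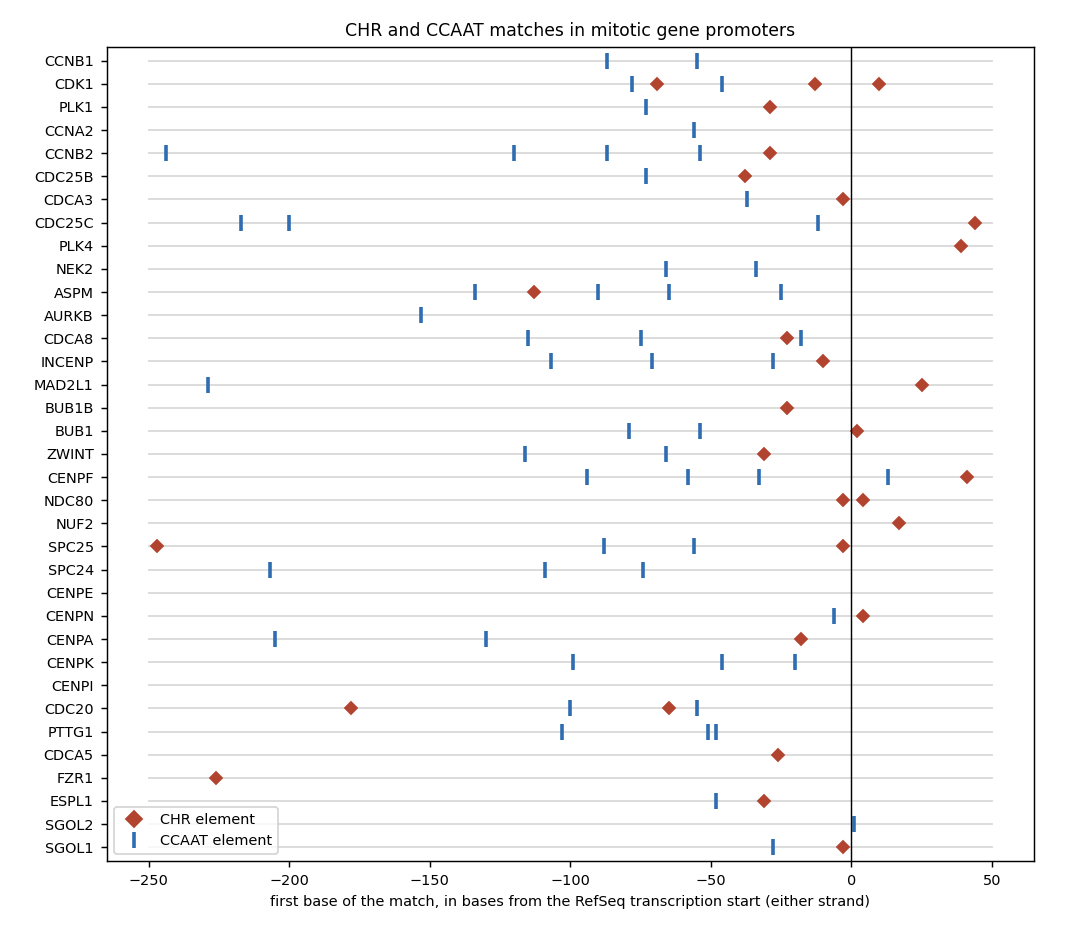
Positions of CHR (diamonds) and CCAAT (bars) matches on either strand in the promoter windows of 35 mitotic genes, in bases from the RefSeq transcription start, for 1 window a gene (one with a CHR where any has it). Most CHR matches sit within 50 bases of the start and most CCAAT matches lie before them.

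Among the G2/M cyclins, kinases and phosphatases, cyclin B1 was the most abundant and AURKA differed most between the libraries. CCNB1 (ENSG00000134057.10; hg19 chr5:68462837-68474072), the B-type cyclin that drives CDK1 into mitosis, was at 285 FPKM in PJ and 147 in PF. Its relative CCNB2 (ENSG00000157456.3; hg19 chr15:59397277-59417244), a Golgi-associated cyclin, was at 60.4 FPKM in PJ and 61.4 in PF. The excess of CCNB1 over CCNB2 was thus 4.71-fold in PJ and 2.40-fold in PF. By these estimates the cyclin B balance differed while CCNB2 itself hardly did. Both CCNB1 estimates lay above their own deposited upper bounds, 271 FPKM in PJ and 141 in PF. The CCNB2 estimate in PF lay above its upper bound of 56.7, and the CCNB2 bounds were apart with PJ higher. How far the balance differed is therefore uncertain. CDK1 (ENSG00000170312.10; hg19 chr10:62538089-62554610), the kinase itself, was at 112 FPKM in PJ and 87.9 in PF, and CCNA2, its cyclin in S and G2 phase, at 69.5 and 55.6. PLK1, the polo-like kinase that triggers entry and spindle assembly, was at 114 FPKM in PJ and 77.0 in PF.

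AURKA (ENSG00000087586.13; hg19 chr20:54944445-54967393), the centrosomal Aurora kinase, was at 66.1 FPKM in PJ, with deposited 95% bounds of 63.4 to 69.3, and at 13.5 in PF, with bounds of 12.4 to 14.5. This 4.91-fold ratio, 2.21 on the log2(FPKM + 1) scale, was the largest of the 44, while its activator TPX2 was at 97.8 FPKM in PJ and 87.3 in PF. AURKA was thus level with AURKB in PJ (1.019-fold) and at 0.218 of it in PF. CDCA3 (ENSG00000111665.6; hg19 chr12:6957967-6961230), an F-box-like protein that helps destroy the CDK1 inhibitor WEE1, came next, at 70.7 FPKM in PJ and 18.6 in PF, a 3.79-fold ratio. The phosphatase gene CDC25B, which acts early in entry, was at 69.8 FPKM in PJ and 40.03 in PF, and CDC25C, the least abundant of this group, at 7.47 and 6.72 with overlapping bounds. Such bounds cover the uncertainty of a single library's estimate, not the spread between cultures.

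The 4 genes of centrosomes and spindle poles differed in direction, with 3 higher in PJ (75%, near the 65.8% of the 15736 symbols that averaged at least 1 FPKM) and 1 lower. NEK2, a kinase that separates centrosomes, was at 35.2 FPKM in PJ and 22.7 in PF, and ASPM, a spindle pole protein known for microcephaly, at 15.4 and 11.2. PLK4 (ENSG00000142731.6; hg19 chr4:128802016-128820350), the kinase that starts centriole duplication, went the other way, at 26.0 FPKM in PJ and 41.6 in PF, or -0.66 on the log2 scale, the lowest ratio of the 44. Its PF estimate lay above its own upper bound of 40.04.

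**Figure D2:**
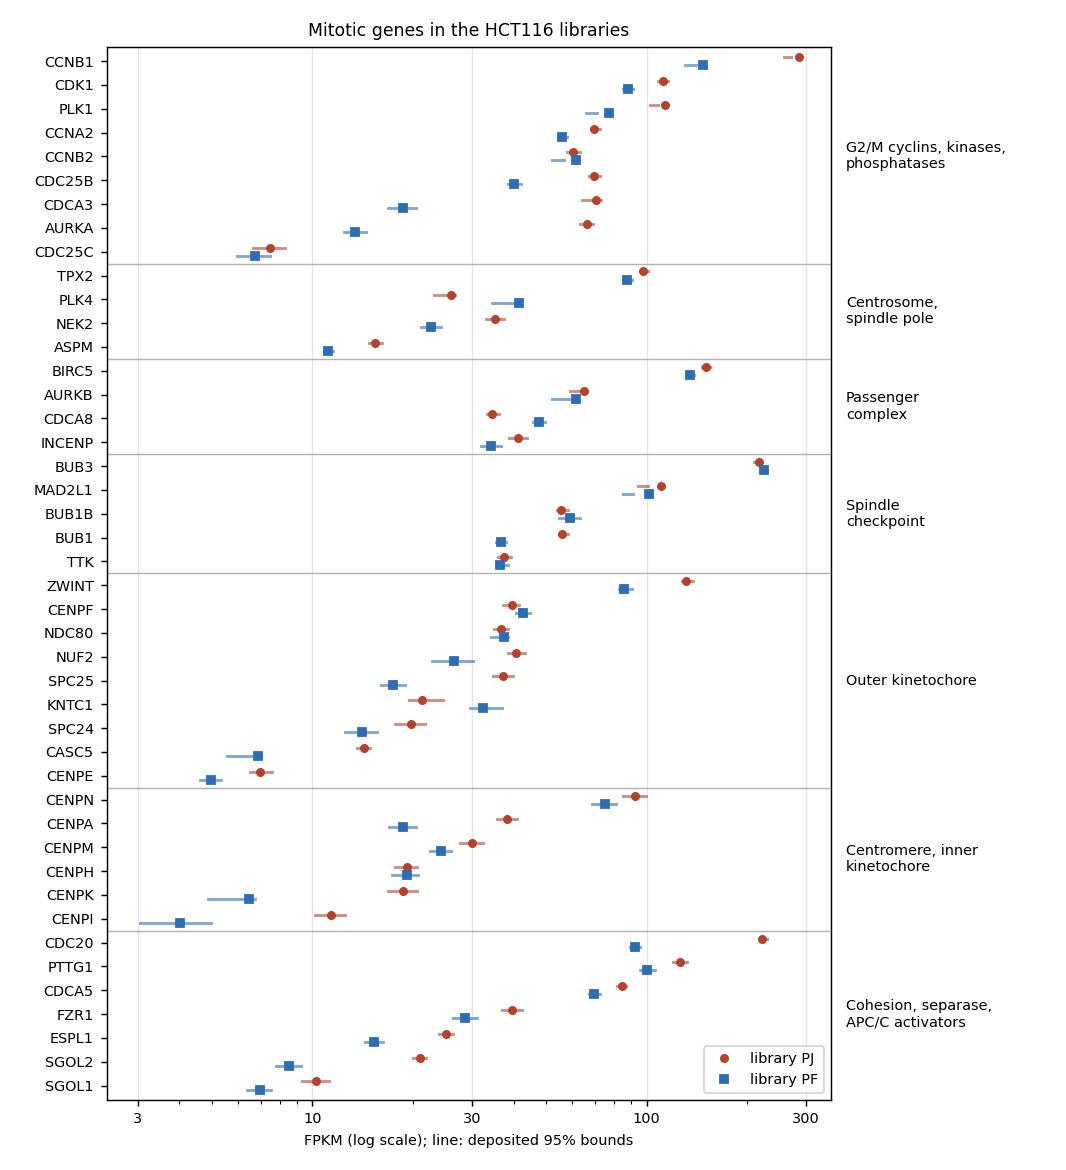
FPKM of the 44 mitotic genes on a log axis, grouped by role, for library PJ (circles) and library PF (squares), with the deposited 95% bounds as lines. CCNB1, BUB3 and CDC20 are the highest, CENPE, CDC25C and CENPI the lowest, and symbols lie off their line where an estimate falls outside its own bounds.

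The passenger complex of chromosomes and the spindle checkpoint had the smallest median log2 ratios of the 7 role groups, 0.11 and 0.04. In the passenger complex, which corrects faulty attachments, BIRC5 (survivin) was at 151 FPKM in PJ and 135 in PF, the kinase gene AURKB at 64.9 and 61.7, and the scaffold gene INCENP at 41.3 and 34.3. CDCA8 (borealin) was the exception, at 34.6 FPKM in PJ and 47.7 in PF. The 4 subunits spanned a 4.35-fold range of levels in PJ and 3.92-fold in PF, with BIRC5 the highest in both libraries. Higher in PJ were 3 of these 4 genes, against 65.8% of symbols. After division by the median ratio 1 of the 4 was higher, and 1 of the 5 checkpoint genes, against 50.5% of symbols.

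Of the 5 checkpoint genes 3 were higher in PJ, or 60.0%, against 65.8% of symbols, and 2 lower, with a median log2 ratio of 0.04, against 0.22 over all symbols that averaged at least 1 FPKM. BUB3 (ENSG00000154473.11; hg19 chr10:124913793-124924886), which docks checkpoint proteins on kinetochores, was at 217 FPKM in PJ and 224 in PF and had the highest mean of the 44, 221 ± 4.58 (SD, n = 2). BUB1B, whose product BUBR1 blocks CDC20, was at 55.6 FPKM in PJ and 58.9 in PF, and TTK (the kinase MPS1) at 37.4 and 36.5. The bounds of these 3 genes overlapped between the libraries. MAD2L1, the other CDC20 inhibitor, was at 110.2 FPKM in PJ and 101 in PF, with both estimates above their own upper bounds. BUB1, a kinase that marks the inner centromere, departed from the rest at 55.9 FPKM in PJ and 36.7 in PF, bounds apart.

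The outer kinetochore, which grips microtubules, had members both higher and lower in PJ. Of its 9 genes, 6 were higher in PJ, or 66.7%, near the 65.8% of all symbols, and 3 lower. Within the NDC80 complex, a rod of 4 subunits, NDC80 was at 36.7 FPKM in PJ and 37.4 in PF. NUF2, its partner at the microtubule end, was at 40.7 FPKM in PJ and 26.5 in PF. At the centromere end of the rod, SPC25 (ENSG00000152253.4; hg19 chr2:169690642-169769881) was at 37.3 FPKM in PJ and 17.4 in PF, and SPC24 at 19.7 and 14.1. NDC80, NUF2 and SPC25 were close to each other in PJ, whereas NDC80 led in PF, and the spread from lowest to highest subunit was 2.06-fold in PJ and 2.66-fold in PF. CASC5 (now named KNL1), the scaffold to which checkpoint proteins bind, was at 14.2 FPKM in PJ and 6.88 in PF, a 2.07-fold ratio of FPKM, or 0.95 on the log2(FPKM + 1) scale. ZWINT, which links CASC5 to the checkpoint's ROD-ZW10-ZWILCH complex, was the most abundant of this group, at 131 FPKM in PJ and 85.8 in PF. KNTC1, which encodes ROD itself, went the other way, at 21.3 FPKM in PJ and 32.4 in PF. CENPF was at 39.4 FPKM in PJ and 42.7 in PF, and CENPE, a kinesin motor that aligns chromosomes, at 6.96 and 4.97.

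At the inner kinetochore and centromere, the group with the highest median ratio, 5 of 6 genes were higher in PJ, or 83.3%, against 65.8% of symbols. CENPA (ENSG00000115163.10; hg19 chr2:26987157-27023935), the histone H3 variant that marks centromeres, was at 38.3 FPKM in PJ and 18.6 in PF. CENPN, which binds CENPA nucleosomes, was the most abundant of the group, at 92.0 FPKM in PJ and 74.9 in PF. CENPH, CENPI, CENPK and CENPM form a single module of the inner kinetochore, and its subunits parted. CENPI (ENSG00000102384.9; hg19 chrX:100353178-100418670) was at 11.3 FPKM in PJ and 4.01 in PF, and CENPK (ENSG00000123219.7; hg19 chr5:64813593-64858998) at 18.7 and 6.45. CENPM was at 29.9 FPKM in PJ and 24.2 in PF, and CENPH at 19.1 and 19.3. The lowest and highest subunit of this module were 2.64-fold apart in PJ and 6.03-fold in PF.

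All 7 genes of cohesion, separase and APC/C activation were higher in PJ, with bounds apart, where 65.8% of symbols were higher and 44.5% were higher with bounds apart. CDC20 (ENSG00000117399.9; hg19 chr1:43824626-43828874), the APC/C activator of metaphase and target of the checkpoint, was at 221 FPKM in PJ and 92.3 in PF, a 2.40-fold ratio. FZR1, the activator that takes over at mitotic exit, was at 39.7 FPKM in PJ and 28.7 in PF, so CDC20 exceeded it 5.57-fold in PJ and 3.21-fold in PF. PTTG1, the securin that holds separase inactive, was at 126 FPKM in PJ and 100.4 in PF, and ESPL1, the separase gene, at 25.1 and 15.3. CDCA5 (sororin), which keeps cohesin closed, was at 84.3 FPKM in PJ and 69.6 in PF. Of the shugoshins, which protect centromeric cohesin, SGOL2 (ENSG00000163535.13; hg19 chr2:201374731-201448505) was at 21.0 FPKM in PJ and 8.52 in PF and SGOL1 at 10.3 and 6.95.

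Across the set, 35 of 44 genes were higher in PJ, or 79.5%, against 65.8% of all symbols that averaged at least 1 FPKM over the libraries (66.6% of the protein-coding ones), and 9 were lower, or 20.5%, against 34.2% (33.4%). At least 2-fold higher in PJ on the log2(FPKM + 1) scale were 8 genes, or 18.2%, against 10.4% of symbols (10.7% of protein-coding ones): AURKA, CDCA3, CENPK, CENPI, CDC20, SGOL2, SPC25 and CENPA. At least 2-fold lower were 0 of the 44, against 5.22% of symbols (4.38% of protein-coding ones). The median log2 ratio was 0.38, and 0.22 over all symbols. After PJ was divided by the median ratio of 1.19, 29 genes were higher and 15 lower, or 65.9% and 34.1%, against 50.5% and 49.5% of symbols (51.7% and 48.3% of protein-coding ones). At least 2-fold higher were then 5 genes (AURKA, CDCA3, CENPK, CENPI and CDC20), or 11.4%, against 6.29% of symbols (6.07%), and 0 were at least 2-fold lower, against 7.14% (6.43%). Each side is 1 library, so these differences have no replicate check.

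**Figure D3:**
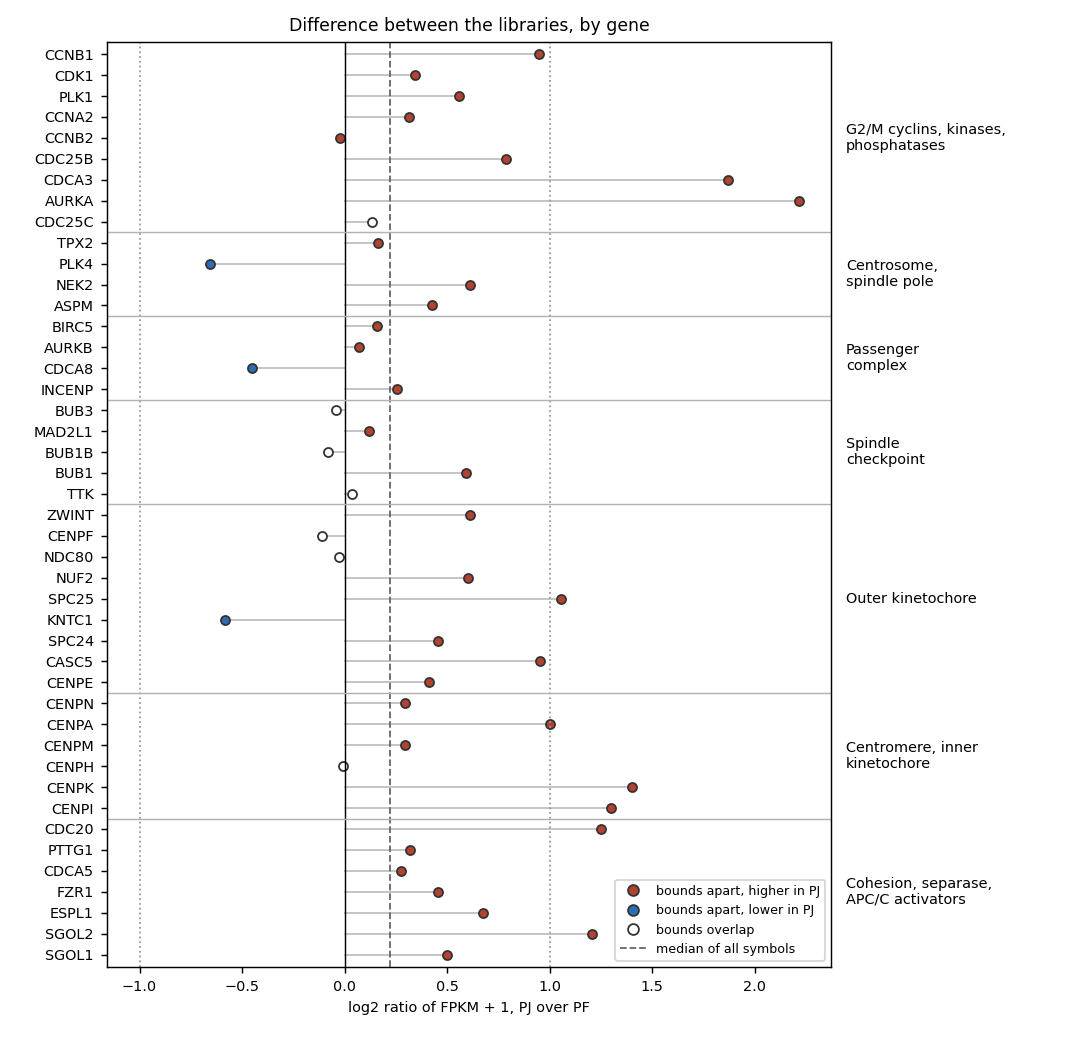
Log2 ratio of FPKM + 1, PJ over PF, for each of the 44 genes by role. Dotted lines mark a 2-fold difference, the dashed line the median of all symbols (0.22), and filled points genes whose 95% bounds were apart. AURKA and CDCA3 stand farthest to the right and PLK4 farthest to the left.

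The deposited bounds were apart with PJ higher for 34 genes, or 77.3%, against 44.5% of single-row symbols (51.1% of protein-coding ones), and apart with PJ lower for 3 (PLK4, KNTC1 and CDCA8), or 6.82%, against 18.3% (20.9%). They overlapped for 7 genes, or 15.9%, against 37.1% (28.0%). The order of bounds and estimates disagreed for 1 gene, CCNB2, whose PF estimate of 61.4 FPKM lay above its own upper bound of 56.7. Estimates above their own upper bound in at least 1 library occurred in 6 genes (CCNB1, MAD2L1, PLK1, AURKB, CCNB2 and PLK4), or 13.6%, and estimates outside their bounds on either side in 16.0% of symbols (10.5% of protein-coding ones).

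Some values can be shared with other genes. The span of 13 of the 44 genes overlaps another gene at 1 FPKM or more in at least 1 library, and the tables give no strand. C2orf18, which overlaps CENPA, was at 32.03 FPKM in PJ and 7.08 in PF, the same direction as CENPA, whereas NOSTRIN, which overlaps SPC25, was at 0.273 and 1.79. CENPN overlaps 3 such genes, among them CMC2, at 124 FPKM in PJ and 91.5 in PF, so the CENPN level is uncertain. Processed copies were also listed: CDC20P1 at 34.7 FPKM in PJ and 14.0 in PF, the AURKA copy AURKAPS1, with status LOWDATA, at 2.81 and 0.421, and the securin copy PTTG3P at 12.9 and 10.5. How reads were divided between these copies and CDC20, AURKA and PTTG1 was not tested, so those 3 levels are uncertain. Among the 31 genes without such an overlap, the median log2 ratio was 0.34 and 4 were at least 2-fold higher in PJ, or 12.9%, near the 10.4% of all symbols.

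Genes around the set differed by complex. In 6 lists of other mitotic genes, 86 of 86 measured genes were expressed, 68 were higher in PJ, or 79.1%, against 65.8% of symbols, and 18 lower, with a median log2 ratio of 0.36. At least 2-fold higher were 6, or 6.98%, below the 10.4% of all symbols. Of the 84 of these genes with 1 row, 14 had an estimate outside its own bounds, against 16.0% of single-row symbols. UBE2S, STRA13, BORA and TFDP1 were above theirs in both libraries. Of 17 APC/C genes and partners 16 were higher in PJ, or 94.1%, against 65.8% of symbols, from the ubiquitin-conjugating enzymes UBE2S, at 353 FPKM in PJ and 218 in PF, and UBE2C, at 221 and 184, to the small subunit CDC26 at 13.1 and 4.55. The exception was the subunit gene ANAPC5, at 74.7 FPKM in PJ and 90.5 in PF. Condensin, which compacts mitotic chromosomes, was higher in PJ for 7 of 8 genes, or 87.5%. Its subunit NCAPD2 was at 74.6 FPKM in PJ and 36.3 in PF, NCAPH2 at 67.0 and 56.4, and SMC2 at 14.98 and 12.6, while SMC4 was at 64.3 and 89.7.

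Cohesin genes went both ways, with a median log2 ratio of 0.07 over 12 genes. In PJ 7 were higher, or 58.3%, against 65.8% of symbols. Of the 12, bounds were apart for 4 of those higher and 3 of those lower, against 44.5% and 18.3% of single-row symbols. After division by the median ratio 9 of the 12 were lower, against 49.5% of symbols. RAD21, the subunit that separase cuts, was at 165 FPKM in PJ and 182 in PF, SMC1A at 49.4 and 53.1, and STAG2 at 28.8 and 35.4. The loader gene NIPBL was at 13.5 FPKM in PJ and 9.59 in PF, and the acetyltransferase gene ESCO1 at 7.79 and 5.56. Of 28 other kinetochore and centromere genes 23 were higher in PJ, or 82.1%. The CENPA-deposition gene OIP5 was at 48.1 FPKM in PJ and 16.8 in PF, the CENPX gene STRA13 at 230.4 and 192, the MIS12 complex gene PMF1 at 56.8 and 58.7, CENPP at 2.93 and 1.54, and MLF1IP (CENPU) at 29.7 and 55.1.

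Entry regulators and the factors that transcribe G2/M genes included genes both higher and lower in PJ. Of 11 entry regulators 8 were higher in PJ, or 72.7%, near the 65.8% of symbols, with a median log2 ratio of 0.15. After division by the median ratio 5 were higher, or 45.5%, near the 50.5% of symbols. The CDK subunit gene CKS2 was at 242 FPKM in PJ and 218 in PF, CKS1B at 186 and 112, the AURKA activator gene BORA at 25.3 and 11.9, the kinase gene MASTL at 13.4 and 12.8, and the phosphatase inhibitor gene ARPP19 at 58.6 and 93.1. Of the activators of G2/M genes, FOXM1 was at 58.6 FPKM in PJ and 63.4 in PF, and MYBL2 at 96.7 and 96.5. Of the MuvB subunits, LIN9 was at 11.2 FPKM in PJ and 8.08 in PF, LIN37 at 9.63 and 6.20, LIN54 at 12.2 and 8.60, and LIN52 at 9.74 and 16.3. Of the DREAM partners, E2F4 was at 84.7 FPKM in PJ and 54.6 in PF, TFDP1 at 171 and 130, RBL1 at 7.78 and 8.15, and RBL2 at 4.94 and 3.05.

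Replication genes, which are needed a phase earlier, gave a lower median than the mitotic genes. Of 21 measured genes 13 were lower in PJ, or 61.9%, against 34.2% of symbols, 0 were at least 2-fold apart, and the median log2 ratio was -0.10, against 0.38 for the 44 mitotic genes. After division by the median ratio 17 were lower, or 81.0%, against 49.5%, and 2 (MCM4 and PCNA) were at least 2-fold lower, or 9.52%, against 7.14%, with medians of -0.34 for the replication and 0.15 for the mitotic genes. All 6 subunits of the MCM2-7 helicase were lower in PJ, among them MCM7, at 229 FPKM in PJ and 274 in PF, and MCM4, at 112 and 209. Both MCM4 estimates lay above their own upper bounds. PCNA was at 264 FPKM in PJ and 457 in PF. POLA1, a DNA polymerase gene, was at 13.02 FPKM in PJ and 11.1 in PF, and GINS1, a helicase partner, at 23.7 and 13.6. RFC4 had no usable estimate in PJ. The difference between the lists was not tested, since each library gives 1 value.

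**Figure D4:**
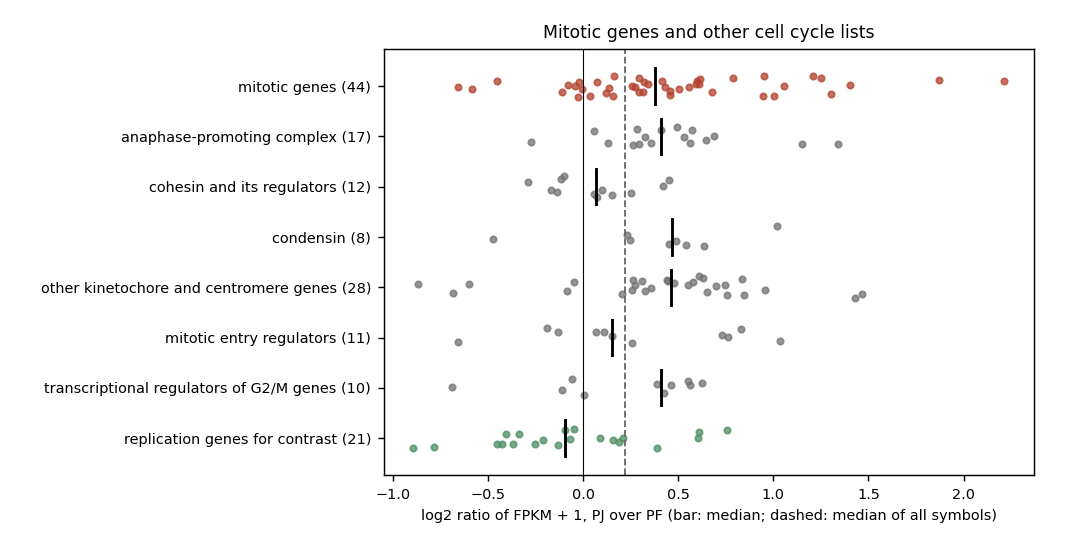
Log2 ratio of FPKM + 1, PJ over PF, for the 44 mitotic genes and 7 other lists of cell cycle genes, 1 point a gene, with each list's median as a bar and the median of all symbols dashed. The replication genes have the lowest median (-0.10) and cohesin the next (0.07).

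Promoter elements and the library difference were set side by side for the 35 genes with a window. The 25 with a CHR match (TTTGAA or TTCGAA) had a median log2 ratio of 0.43, and the 10 with neither spelling had 0.54. Other spellings of the CHR were not searched, so those 10 may still hold one. The order was the other way for the CCAAT box, with 0.48 over the 28 genes that had it and 0.41 over the 7 without. It was also the other way for both elements in 1 window, with 0.50 over 19 genes and 0.43 over the other 16. None of these differences was tested. Median levels over genes with a CHR were 41.3 FPKM in PJ and 40.03 in PF, and over those without 28.1 in PJ and 18.4 in PF.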

How the data were processed

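RNA of 2 HCT116 libraries was extracted with Trizol and made into paired-end libraries from total RNA, per the labels' protocols, which state neither poly(A) selection nor strand. The submitters' processing notes name TopHat, TopHat2 2.0.8b, Cufflinks and the genome build hg19. For Cufflinks, neither its version nor the gene annotation it used is given in the sources used here. FPKM was deposited by the authors for 56586 genes in each library, with 95% bounds and a status, per the file headers. Estimates with status FAIL (20 in PJ, 23 in PF) were treated as missing, and rows sharing a symbol were summed. FPKM sums to 3492961 in PJ and 3053271 in PF over all rows, and to 571898 and 566495 over protein-coding symbols. Whether a few short abundant RNAs shift other values was not tested. The depth is unknown.

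Each log2 ratio of a gene divides PJ by PF after adding a pseudocount of 1 FPKM, so changes of weakly expressed genes come out too small. Ratios given as folds, and the median ratio of 1.19, divide FPKM without a pseudocount. With 1 library a side no test was run. Protein-coding type and the length of the longest transcript, summed over its exons, came from GENCODE release 29 by gene identifier, matched for 88.7% of genes. No gene position was taken from it. Gene positions are those of the deposited tables, counted from 1. Promoter sequences are RefSeq's, GRCh38.p14. The 44 genes and all lists were chosen with earlier results of these data known. Of the other lists, the 2 highest means, the lowest mean and, at a mean of 5 FPKM or more, the largest ratio each way are named, with CDKN1A and the regulators of G2/M transcription; 1 other gene of this rule is not reported here. CENPW was not measured under that name. Changes of threshold, pseudocount, filter, scaling and library were tried as alternatives. Python 3.11.15, numpy 2.4.6, pandas 2.3.3, scipy 1.17.1 and matplotlib 3.10.9 were used.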

Additional observations from a re-analysis of the deposited data

How the results depend on the processing

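Of 50 alternative settings, 44 left the results within 1.5 times for counts, 0.1 for the median log2 ratio and 1 SD between libraries for the median level. Direction was checked only for the median log2 ratio, which kept its sign. Several settings could not change a value. Each gene had 1 row and status OK, so other handling of FAIL or repeated rows had no effect. The lowest mean was 5.96 FPKM, so filters on a mean of up to 5 FPKM had none either. All 44 genes stayed at 1 FPKM or more in each library alone, which follows from the count in both. The median level on the log2(FPKM + 1) scale, 5.25, ranged from 5.23 to 5.36 between the libraries taken alone. The median log2 ratio of 0.38 was 0.15 with PJ divided by the median ratio and 0.20 with FPKM rescaled over all rows. The count of 8 genes at least 2-fold higher in PJ was 5 with PJ divided by the median ratio, 4 with a pseudocount of 5, and 4 among the 31 genes that overlap no expressed gene, a setting added after the data were seen, where fewer genes were counted. Library ratios need both libraries, so they have no value with one left out. No paired analysis was possible because the libraries form 1 group. Depth is unknown, and the bounds are the measure of precision within a library.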

Other observations

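Neighbouring CCAAT matches whose first bases lie 32 or 33 bases apart were found in 5 of the 35 genes with a RefSeq window (CCNB1, CCNB2, CDK1, NEK2 and SPC25), or 14.3%, against 0.82% of all 27305 symbols in the promoter table. The distance was chosen after these promoters were seen, so this is a description with no test. At least 2 CCAAT matches at any distance were present in 17 of the 35 genes, or 48.6%, against 12.9% of symbols.

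The library ratio of the 44 genes went weakly with transcript length. Spearman's rho between the longest annotated transcript and the log2 ratio was -0.21 over the 44 genes and -0.17 over 11468 protein-coding symbols that averaged at least 1 FPKM. These are correlations across genes that share the same libraries, given as descriptions.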
